A study of Homo sapiens with 2 samples.

Results

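SAP25 and 9 further genes of the SIN3-HDAC corepressor complex were examined in HCT116 cells treated with decitabine (DAC) and in mock-treated cells. The genes were taken by their names, SAP25, SAP30, SAP18, SAP130, SIN3A, SIN3B, HDAC1, HDAC2, SUDS3 and BRMS1, and make up 10 of the 33538 genes in the tables. SAP25 was picked from the measured values. Among genes with no more than 2 UMIs in any mock-treated cell it had the rank 4 by UMIs in DAC-treated cells, and LINC00958 at rank 10 with 4813 UMIs and GAGE12H at rank 11 with 4654 UMIs lay just inside and just outside the 10 genes taken. Its difference between the conditions is therefore given as a description. The other 9 genes were taken as known partners of the complex. HCT116, an established line of human colon cancer cells, was grown in McCoy's 5A medium with 10% FBS, and both conditions came from this single line. Treated cells received 0.5 μM DAC on 2 occasions, day 1 and day 3 of culture, and were collected on day 7, which was 2 days after the drug had been taken away, whereas the control cells were labeled as mock-treated. Single cells were analyzed by 3′ single cell RNA sequencing (scRNA-seq), with 1 library per condition, so that no test between the conditions could be made.

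SIN3 proteins are large scaffolds without DNA-binding activity of their own, which are brought to promoters by transcription factors. They hold the histone deacetylases HDAC1 and HDAC2, which remove acetyl groups from histone tails and thereby favor a repressed chromatin state. The smaller subunits, named SAP for SIN3-associated polypeptide, join the scaffold, the deacetylases and the recruiting factors to each other, and SAP25 is known as a small subunit that binds the SIN3 scaffold and moves between nucleus and cytoplasm. DAC is a cytidine analog that is built into replicating DNA and traps DNA methyltransferases there, so that methylation of CpG sites is lost as the cells divide.

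Since DAC acts on CpG sites, the DNA just before the start of SAP25 is shown beside that of HDAC1 and SUDS3, the other members for which the start is the same base in RefSeq and GENCODE and this stretch touches no exon of a protein-coding gene. Each stretch holds the 110 bases before the start of the gene in RefSeq on GRCh38.p14, written 5′ to 3′ on the strand of the gene, with each CpG in capitals. Those of SAP25 lie at chr7:100573901-100574010 on the minus strand, those of HDAC1 at chr1:32291973-32292082 on the plus strand, and those of SUDS3 at chr12:118376445-118376554 on the plus strand. The stretch of SAP25 fills the gap between SAP25 and the end of its neighbor LRCH4 and lies in an exon of a long non-coding RNA.
SAP25: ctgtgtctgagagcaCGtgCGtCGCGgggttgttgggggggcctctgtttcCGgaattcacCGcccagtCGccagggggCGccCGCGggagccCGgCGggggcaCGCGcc
HDAC1: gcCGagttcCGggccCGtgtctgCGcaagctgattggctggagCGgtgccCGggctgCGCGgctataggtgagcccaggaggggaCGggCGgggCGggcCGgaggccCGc
SUDS3: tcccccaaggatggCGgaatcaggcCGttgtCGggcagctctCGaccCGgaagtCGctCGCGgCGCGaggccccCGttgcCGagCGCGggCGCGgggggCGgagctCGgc
The stretch of SAP25 held 14 CpG sites and had a GC content of 74.5%, and 17.1% of 35114 RefSeq promoters had as many or more in the same window, where the motif CG was counted on 1 strand because it reads the same on the other. The stretch of HDAC1 held 13 and that of SUDS3 18, against a median of 5 over all promoters. The stretches of 6 further subunits held from 3, for SIN3B, to 13, for SAP30, with 8 for HDAC2 and 9 for BRMS1. All of these lie at a RefSeq start that is not the GENCODE start, 21 bases away for BRMS1, 33876 for SIN3B and 40160 for HDAC2. The low counts of SIN3B and HDAC2 therefore belong to stretches far from the GENCODE start of these genes. A CpG count as high as that of SAP25 or close to it was thus found for some of the subunits that were expressed before treatment. For the others, the stretch does not lie at the GENCODE start, and no contrast is read from their counts. The CpG count is a description of the reference sequence and gives no methylation level.

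The mock-treated library held 49911689 UMIs in 1783 cells (median 27899 per cell), and the DAC-treated library held 59046165 UMIs in 1751 cells (median 35340). In both libraries, some cells were shallow or dominated by mitochondrial transcripts, with 311 mock-treated and 319 DAC-treated cells above 50% mitochondrial UMIs, and 12 barcodes occurred in both. Markers of the colon epithelial line, EPCAM, KRT8, KRT18, KRT19, CDH1 and CDX2, were all found in both libraries, from 438 UMIs of CDX2 to 101301 UMIs of KRT18 in mock-treated cells. Of 8 markers of immune cells, fibroblasts and endothelium, PTPRC, CD3E, COL1A2, DCN and PECAM1 had no UMI in mock-treated and from 9 to 46 UMIs in DAC-treated cells, VWF had 6 and 62, and CD68 (321 and 525) and COL1A1 (533 and 1112) were found in both. The part of such other markers in the results was not tested. Levels below are the UMIs of a gene in every 1000000 UMIs of its library (CPM), and positions are those of GENCODE release 44 on hg38. A UMI marks 1 transcript molecule at its 3′ end, so that levels of different genes were compared as molecules and were not divided by gene length. Intervals are 95% intervals and cover counting error alone, not the difference between separate cultures.

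Over all cells, SAP25 (ENSG00000205307, chr7:100572228-100573900, minus strand) was nearly silent in mock-treated cells and was the second most abundant of the 10 transcripts after DAC. It had 87 UMIs, or 1.74 CPM (1.40 to 2.15), in mock-treated cells and 7531 UMIs, or 127.5 CPM (124.7 to 130.5), in DAC-treated cells, a ratio of 73.2 (59.2 to 91.5). Such a ratio was not unique in the data, since 219 of 12815 genes with 100 UMIs or more in the library where their CPM was higher had a ratio as large, SAP25 included. Its size depends on the way of averaging, as the log2 ratio of SAP25 was 6.19 from UMI sums and 4.53 from averaged per-cell CPM values. In mock-treated cells, the 87 UMIs were spread over 85 cells, 83 with 1 UMI and 2 with 2 UMIs. That no mock-treated cell reached 3 UMIs, the number at which a gene was called upregulated in a cell, was fixed by the way SAP25 was picked. In DAC-treated cells, 776 cells (44.3%, 42.0 to 46.7) had 3 UMIs or more, 291 cells (16.6%) had 10 or more, and the highest cell had 53.

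The scaffolds were expressed in both conditions at low levels. SIN3A (ENSG00000169375, chr15:75369379-75455842) had 1058 UMIs in mock-treated and 1598 in DAC-treated cells, or 21.2 and 27.1 CPM, a ratio of 1.28 (1.18 to 1.38). SIN3B (ENSG00000127511, chr19:16829398-16880353) had 710 and 1554 UMIs, or 14.2 and 26.3 CPM, a ratio of 1.85 (1.69 to 2.02). Accordingly, SIN3A was ahead of its paralog SIN3B in mock-treated cells, whereas the order of both in DAC-treated cells was within counting error.

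HDAC1 had a lower CPM after DAC, whereas the level of HDAC2 on this scale was equal within counting error over all cells. HDAC1 (ENSG00000116478, chr1:32292083-32333635) had 5878 UMIs in mock-treated and 4836 in DAC-treated cells, or 117.8 and 81.9 CPM, a ratio of 0.695 (0.669 to 0.723). HDAC2 (ENSG00000196591, chr6:113933028-114011308) had 5559 and 6538 UMIs, or 111.4 and 110.7 CPM, a ratio of 0.994 (0.959 to 1.03). In cells with up to 20% mitochondrial UMIs, the intervals of HDAC2 were apart, at 119.7 CPM (116.3 to 123.2) in mock-treated and 127.8 CPM (124.1 to 131.6) in DAC-treated cells. In cells above 50%, the ratio was 1.18 for HDAC1, on 62 and 119 UMIs, and 1.86 for HDAC2, on 41 and 124 UMIs. The direction of HDAC1 turned there, but its intervals overlapped, at 25.2 CPM (19.3 to 32.3) in mock-treated and 29.7 CPM (24.6 to 35.6) in DAC-treated cells. Over all cells, HDAC1 was the more abundant paralog in mock-treated cells and HDAC2 in DAC-treated cells, in both cases beyond counting error. The order depended on the cells taken. In DAC-treated cells, the intervals of both genes overlapped in the class with the lowest total UMIs and in cells above 50% mitochondrial UMIs. In the mock-treated cells with up to 20% mitochondrial UMIs, HDAC1 at 122.8 CPM (119.3 to 126.3) and HDAC2 had intervals that overlap, and among all mock-treated cells, the class of cells with the highest total UMIs had 3469 UMIs of HDAC1 and 3490 of HDAC2.

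Among the accessory subunits, the largest ratio belonged to BRMS1 (ENSG00000174744, chr11:66337333-66345125), known as a metastasis suppressor gene. It had 1042 UMIs in mock-treated and 3045 in DAC-treated cells, or 20.9 and 51.6 CPM, a ratio of 2.47 (2.30 to 2.65). SUDS3 (ENSG00000111707, chr12:118376555-118418033), a relative of BRMS1 that bridges SIN3 and the deacetylases, had 3167 and 3145 UMIs, or 63.5 and 53.3 CPM, a ratio of 0.839 (0.799 to 0.882). These relatives thus lay on opposite sides of an equal level. SAP30 (ENSG00000164105, chr4:173369969-173377532), which stabilizes the complex, had 881 and 2093 UMIs, or 17.7 and 35.4 CPM, a ratio of 2.01 (1.86 to 2.18). SAP18 (ENSG00000150459, chr13:21140119-21149097), which also serves in the splicing-linked ASAP complex, had 14324 and 23328 UMIs, or 287 and 395 CPM, a ratio of 1.38 (1.35 to 1.41). It was the most abundant of the 10 transcripts in both conditions. SAP130 (ENSG00000136715, chr2:127941217-128028120) had 327 and 655 UMIs, or 6.55 and 11.1 CPM, a ratio of 1.69 (1.48 to 1.94).

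**Figure D1:**
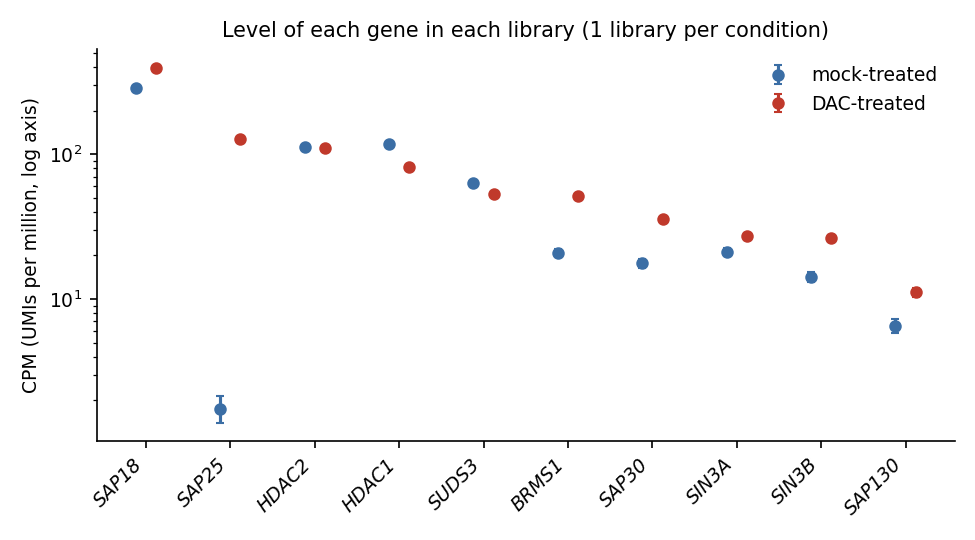
Level of each of the 10 genes in CPM, on a log axis, in mock-treated (blue) and DAC-treated (red) cells, with 95% counting intervals that are often smaller than the points. Over all cells, SAP25 moved from 1.74 to 127.5 CPM and from the lowest to the second position, whereas the other 9 genes kept within a ratio of 0.695 to 2.47.

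Of the 9 subunits other than SAP25, BRMS1 and SAP30 were 2-fold higher or more, and none was 2-fold lower or less. Over the 12815 genes compared, 16.4% were 2-fold higher or more and 6.59% were 2-fold lower or less. The interval of the ratio lay above 1 for 6 of the 9 subunits, below 1 for HDAC1 and SUDS3, and held 1 for HDAC2. Their median log2 ratio was 0.46, against 0.25 over the genes compared, of which 64.0% were higher in DAC-treated cells. Since scaling by the median of ratios in place of total UMIs lowered every log2 ratio by 0.24, small ratios depend on the scaling. On that scale, the log2 ratio of BRMS1 was 1.07 and that of SAP30 was 0.77, below 2-fold, whereas SAP18 (0.22) and SIN3A (0.11) stayed higher and HDAC2 was at −0.25. The summed level of the 9 subunits was 660 CPM in mock-treated and 792 CPM in DAC-treated cells, a ratio of 1.20.

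**Figure D2:**
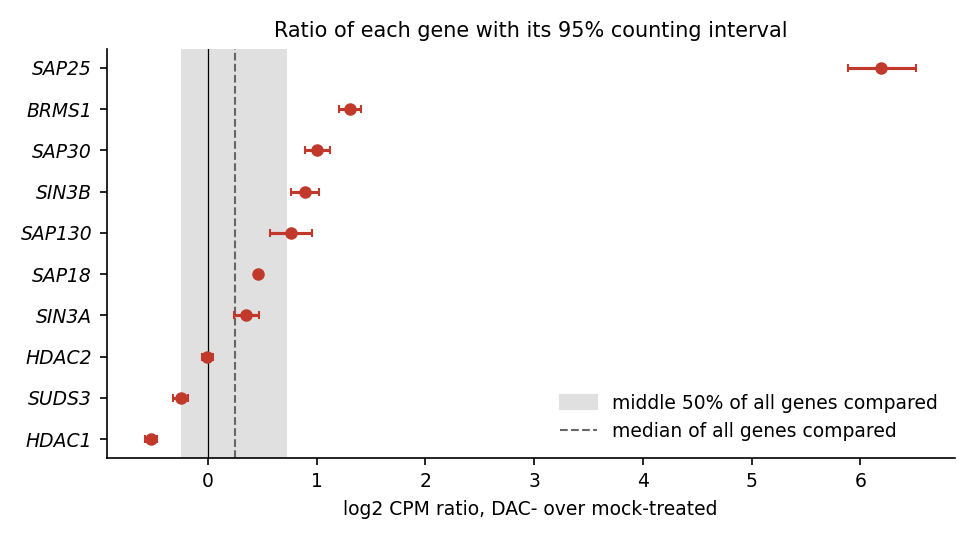
log2 CPM ratio of DAC-treated over mock-treated cells for each gene, with its 95% counting interval, beside the median (dashed line, 0.25) and the middle 50% (grey, −0.24 to 0.72) of all genes compared. SAP25 stood at 6.19, and the other 9 genes lay between −0.52 and 1.30.

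The makeup of the 10 transcripts, which does not depend on how the libraries were scaled, differed most in SAP25. Its share of their UMIs was 0.263% (0.211 to 0.325) in mock-treated and 13.9% (13.6 to 14.2) in DAC-treated cells. SAP18 held 43.4% and 42.9%, nearly equal shares. HDAC1 held 17.8% in mock-treated and 8.90% in DAC-treated cells, and BRMS1 3.15% and 5.61%. In mock-treated cells, the order by CPM was SAP18, HDAC1, HDAC2, SUDS3, SIN3A, BRMS1, SAP30, SIN3B, SAP130 and SAP25, in which SIN3A and BRMS1 did not differ beyond counting error. In DAC-treated cells, it was SAP18, SAP25, HDAC2, HDAC1, SUDS3, BRMS1, SAP30, SIN3A, SIN3B and SAP130, in which SUDS3 and BRMS1, and SIN3A and SIN3B, did not differ beyond it.

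The share of cells with 3 UMIs or more, in the counts as deposited, mostly followed the levels. It was 4.26% in mock-treated and 30.2% in DAC-treated cells for BRMS1, 4.82% and 16.6% for SAP30, and 2.08% and 11.5% for SIN3B. It was 4.66% and 11.02% for SIN3A and 0.280% and 1.88% for SAP130. In DAC-treated cells, the share of SAP25 was close to that of HDAC1, which was 42.0% (39.7 to 44.4), at unequal depth only, and a UMI of either gene was found in 62.4% and 66.8% of cells. The share was lower after DAC for HDAC1, from 53.3%, and for SAP18, from 71.1% to 66.9%, which turned at equal depth as given below, and it was 48.6% and 51.2% for HDAC2 and 29.1% and 30.0% for SUDS3. For SAP18, a lower share went with a higher CPM, since the median cell with 12 UMIs after DAC was above that of mock-treated cells with 8, while cells with a single UMI were more frequent, 191 against 116.

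SAP25 left more DAC-treated cells empty than an even spread would. Of 1751 cells, 658 had no UMI of SAP25, 204 had 1, 113 had 2, 270 had 3 to 5, 215 had 6 to 9, 239 had 10 to 19 and 52 had 20 or more. The median was 2 UMIs, the upper quartile 6 and the 90th percentile 13. If every cell had held SAP25 in proportion to its total UMIs, 383 cells would have had none, so that the 658 observed were 1.72 times that number. The same ratio was 1.32 for HDAC2, 1.34 for SAP18, 1.23 for HDAC1, 1.22 for BRMS1 and 1.20 for SAP30, and from 1.02 to 1.15 for the other 4 genes. It depends on the level, since a gene with few UMIs leaves most cells empty in any case. The 224 cells with the most SAP25 held 50% of its UMIs.

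**Figure D3:**
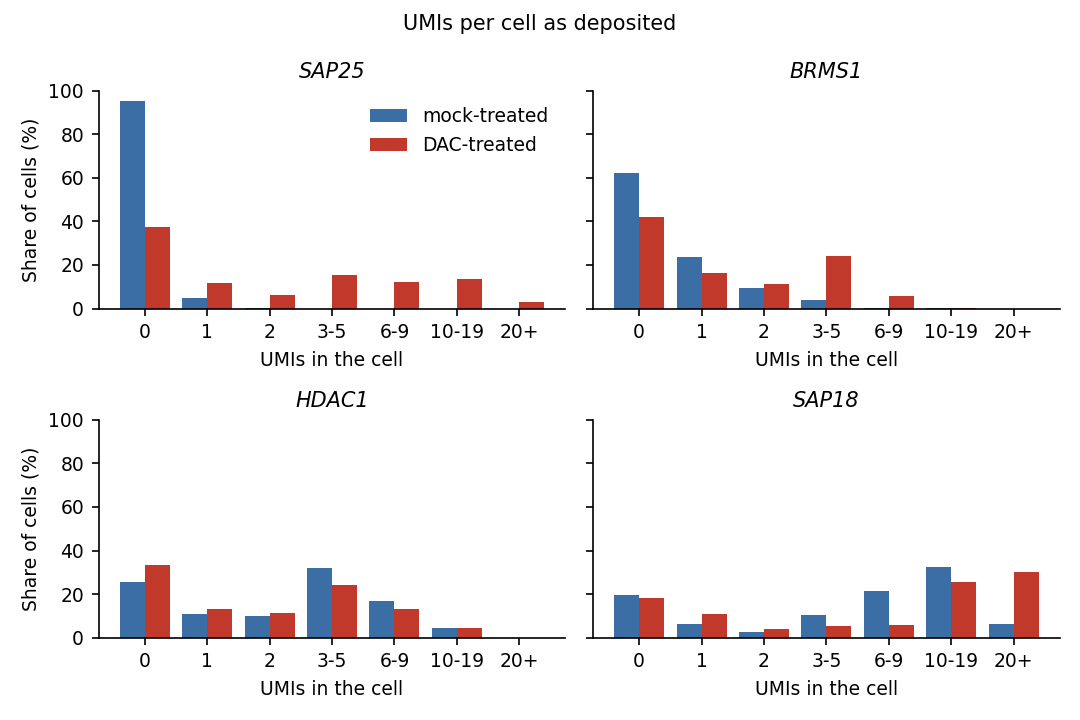
Share of mock-treated (blue) and DAC-treated (red) cells by the number of UMIs of SAP25, BRMS1, HDAC1 and SAP18 in the cell, with the counts as deposited. Of 1751 DAC-treated cells, 658 had no SAP25 and 291 had 10 UMIs or more of it, and 738 had no BRMS1 and 7 had 10 UMIs or more of it.

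Depth set a part of these shares, so SAP25 was also read in classes of cells. Cells of each library were divided by total UMIs into 3 classes of equal size, and 3 UMIs or more were found after DAC in 3.25% of the cells in the lowest, 52.4% in the middle and 77.4% in the highest. SAP25 was at 66.8, 118 and 138 CPM in these classes, against 4.19, 1.58 and 1.45 CPM in those of the mock-treated cells. The CPM ratio was thus 15.9, 74.7 and 94.8, and the first rests on 19 UMIs in mock-treated cells. Each ratio sets cells of unlike depth against each other. Median total UMIs were 7375 in mock-treated and 2179 in DAC-treated cells of the lowest class, and 44328 and 59133 in the highest. By mitochondrial share, the ratio was 93.1 in cells up to 20%, 55.3 in those from 20% to 50%, and 13.3 in those above 50%, where mock-treated cells had 7 UMIs. SAP25 was therefore higher after DAC in every class examined, by an amount that was smaller in shallow cells and in cells rich in mitochondrial transcripts. The part of free RNA in the lowest classes was not tested. After DAC, SAP25 was ahead of HDAC2 beyond counting error in the class with the highest total UMIs and in cells up to 20% mitochondrial UMIs. In the other classes, the intervals of both genes overlapped, and from 20% to 50% SAP25 was at 95.7 and HDAC2 at 96.8 CPM. In mock-treated cells above 50%, SAP25 at 2.84 CPM was not the lowest, with SAP130 at 2.44 and SAP30 at 2.03 CPM, all on few UMIs.

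To compare cells at equal depth, 10000 UMIs were drawn at random once from each cell that had as many, which left 1388 mock-treated and 1293 DAC-treated cells and left out 395 and 458. At this depth, SAP25 was detected with 1 UMI or more in 1.80% of mock-treated and 55.6% of DAC-treated cells. BRMS1 was detected in 17.9% and 37.0%, SAP30 in 13.5% and 26.8%, SIN3B in 12.5% and 23.2%, SIN3A in 18.2% and 24.8%, and SAP130 in 5.84% and 10.4%. Detection was thus higher after DAC for these 5 subunits also without a difference in depth, when all cells of this depth were taken. The mitochondrial share of the cells was not made equal. Over all cells of this depth, detection was lower for HDAC1, with 67.1% and 50.6%, and for SUDS3, with 47.8% and 38.0%. The intervals of both conditions overlapped for HDAC2, with 62.9% and 59.9%, and for SAP18, with 90.9% and 88.9%. In those with up to 20% mitochondrial UMIs, HDAC1 was also lower, with 71.4% and 64.6%. There, the intervals overlapped for SUDS3, with 47.9% (44.8 to 51.0) and 43.8% (40.1 to 47.6), and for HDAC2, with 66.9% and 69.8%. SAP18 was higher after DAC there, with 94.3% (92.7 to 95.6) and 98.3% (97.0 to 99.1). Of the 5 subunits above, BRMS1, SAP30 and SIN3B were also higher in these cells, with intervals that were apart. Those of SIN3A overlapped, with 18.2% (15.8 to 20.6) in mock-treated and 22.5% (19.4 to 25.8) in DAC-treated cells. Those of SAP130 overlapped as well, with 7.09% (5.60 to 8.83) and 10.6% (8.42 to 13.1). With 3 UMIs or more at this depth, SAP25 was found in 16.7% (14.7 to 18.9) of DAC-treated cells and HDAC1 in 6.88% (5.56 to 8.40), so that these shares were no longer close. For SAP18, the direction turned at equal depth, since 3 UMIs or more were found in 51.6% (48.9 to 54.2) of mock-treated and 65.7% (63.0 to 68.3) of DAC-treated cells.

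SAP25 also left more cells empty than sampling gives at equal depth, as did other genes that were nearly silent in mock-treated cells. Over 20 further draws, a mean of 567.8 of the 1293 DAC-treated cells had no SAP25, 1.43 times (1.35 to 1.49) the number that Poisson sampling gives at its mean of 1.18 UMIs. This ratio of empty cells was 4.02 for SAP18, 1.15 for HDAC2 and 1.10 for HDAC1, and 1.00 to 1.04 for the other 6 subunits. Those 6 had means of only 0.108 to 0.516 UMIs, at which most cells are empty by sampling already. The ratio then has little room to rise, and it was low for SAP30 although its squared CV, given below, was high. The squared CV beyond Poisson sampling, which is 0 when cells differ by sampling alone, was 0.743 for SAP25 in the single draw and from 0.602 to 0.797 in the 20 further draws. That of the single draw was above 86.6% of the 5561 genes that had at least 0.2 UMI per cell, of which the median was 0.325. Over the 20 draws, the mean was 0.814 for SAP30, 0.336 for HDAC1, 0.277 for HDAC2 and 0.241 for SAP18, and that of BRMS1 ranged from 0.139 to 0.454. A high value was thus not particular to SAP25 among the members, although SAP30, at 0.34 UMI per cell, was measured with less precision and ranged from 0.478 to 1.12. In the single draw, LY6K, UCHL1 and MEG3 had 1.44, 1.52 and 4.86 times the Poisson number of empty cells and squared CVs of 1.03, 1.82 and 4.10. Each of these squared CVs was above that of SAP25.

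Without cells rich in mitochondrial transcripts, the number of empty cells stayed near that of sampling for most subunits. The squared CV of SAP25 was lower, whereas its ratio of empty cells was not. In the 698 DAC-treated cells of this depth with up to 20% mitochondrial UMIs, a mean of 238.1 cells had no SAP25 against 151.5 by Poisson sampling. This was 1.57 times as many, with a range of 1.48 to 1.68 over the draws. SAP18 was missing in 13.1 cells against 8.09, a ratio of 1.63 that ranged from 0.868 to 2.81 over the draws. For the other 8 subunits, the ratio was 1.00 to 1.10, with little room to rise for those of low mean. The mean squared CV of SAP25 was 0.495, with a range of 0.397 to 0.626 over the draws. That of SAP30 was 0.348, with a range of 0.120 to 0.702 that overlaps it. The mean was 0.187 for BRMS1, 0.153 for HDAC1, 0.140 for HDAC2 and 0.0917 for SAP18. In the single draw, the squared CV of SAP25 was above 80.0% of 5733 genes, a lower position than in all cells. Of these cells, 34.1% had no SAP25 at a mean of 1.53 UMIs, 39.3% had no HDAC1 at 1.00 UMIs, and 30.1% had no HDAC2 at 1.30 UMIs. The share of cells without SAP25 thus lay between those of the deacetylases, whose means were lower.

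**Figure D4:**
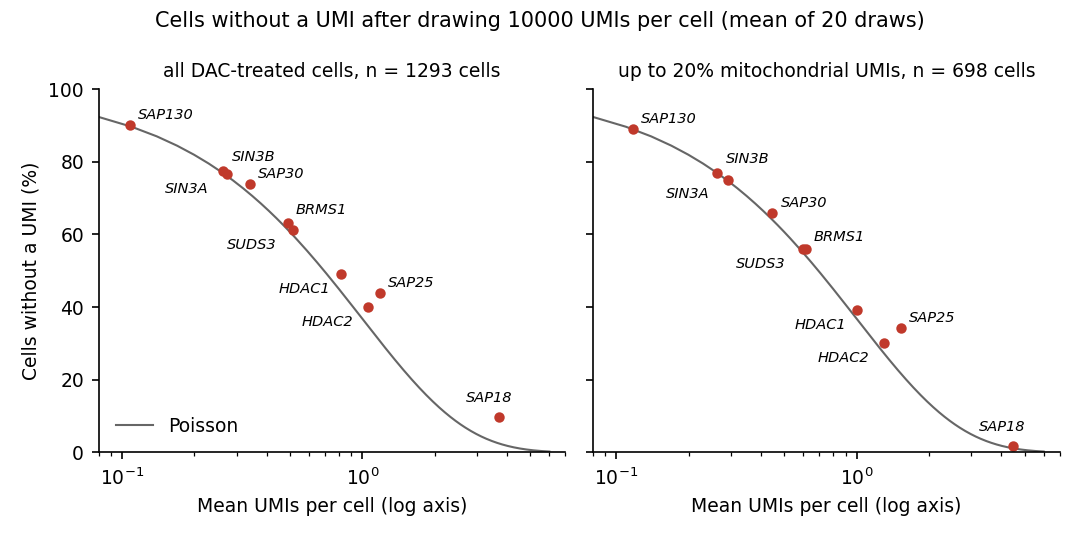
Percent of DAC-treated cells without a UMI of each gene against its mean UMIs per cell (log axis) after 10000 UMIs were drawn from every cell, as means of 20 draws, for all such cells (left) and for those with up to 20% mitochondrial UMIs (right). The line gives Poisson sampling, and SAP25 lies above it in both panels, at 1.43 and 1.57 times the Poisson number.

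In the 776 DAC-treated cells with 3 or more SAP25 UMIs, a median of 7 of the other 9 genes were detected, and 682 cells (87.9%, 85.4 to 90.1) had a UMI of SIN3A or SIN3B together with one of HDAC1 or HDAC2. These cells were mostly deep, with 19 of them in the lowest class of total UMIs. At equal depth, the share with both kinds of transcript was 38.9% (32.3 to 45.7) in 216 cells with 3 or more SAP25 UMIs and 31.7% (27.9 to 35.7) in 574 cells without SAP25, with intervals that overlap. Among cells of low mitochondrial share, the deacetylases had similar levels with and without SAP25. In a single draw from the 698 cells with up to 20% mitochondrial UMIs, 234 had no SAP25, 284 had 1 or 2 UMIs and 180 had 3 or more. HDAC1 had a mean of 1.07, 1.00 and 1.05 UMIs in these classes, and HDAC2 1.26, 1.34 and 1.22. BRMS1 had 0.560 (0.468 to 0.664), 0.581 and 0.667 (0.553 to 0.797), with intervals that overlap. SIN3A had 0.192 (0.140 to 0.257), 0.289 and 0.306 (0.230 to 0.398), and SAP130 had 0.0812 (0.0489 to 0.127), 0.113 and 0.144 (0.0944 to 0.212), also with overlapping intervals. Without the limit on mitochondrial share, BRMS1 had 0.427 UMIs in the 574 cells without SAP25 and 0.769 in the 216 cells with 3 or more, and HDAC1 0.720 (0.652 to 0.792) and 1.03 (0.901 to 1.18), with intervals that do not overlap. The same held for HDAC2, with 0.927 and 1.25 UMIs, for SAP18, with 3.53 and 4.09, and for SAP30, with 0.317 and 0.463, whereas the intervals of the other 4 subunits overlapped. These classes also differed in mitochondrial share, with medians of 21.8% and 15.9%. The intervals of the mean UMIs cover counting error alone and leave out the spread between cells.

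No subunit followed SAP25 closely from cell to cell. Over the 1293 DAC-treated cells at equal depth, Pearson's r of log2(UMIs + 1) with SAP25 was at most 0.13 for a subunit, BRMS1, and lowest, −0.01, for SIN3B. The median r over 5560 genes was 0.04, and few genes had a high r. By r, BRMS1 ranked 726, SAP18 1084, HDAC2 1188 and HDAC1 1284 of these genes, whereas SIN3A ranked 3274 and SIN3B 4552. The cells share 1 library and depth, the counts are sparse, and correlations of this size are given as a description. The 5 genes with the highest r of 5560 were RPSA (0.29), RPL35A (0.28), RPL11 (0.28), TUBA1B (0.28) and PRELID1 (0.28), which encode 3 ribosomal proteins, an alpha-tubulin and a mitochondrial lipid-transfer protein. Their means were from 4.78 to 21.3 UMIs per cell, well above that of SAP25. Among the lowest r were those of transcripts of the mitochondrial genome, MT-CO1 (−0.26) and MT-CYB (−0.24), which were named after their values were seen. In the 698 cells with up to 20% mitochondrial UMIs, r was from 0.12 to 0.17 for the 5 genes with the highest r above, 0.05 for BRMS1 and −0.09 for SAP18. Of the 5 genes, PRELID1 alone was among the 10 with the highest r in these cells. Of other genes that were nearly silent in mock-treated cells, MEG3, a long non-coding RNA, had an r of −0.13 with SAP25, LY6K of 0.09 and UCHL1 of 0.10. In the 698 cells, these were −0.09, 0.06 and 0.01. There, MEG3 had a mean of 1.68 UMIs (1.52 to 1.86) in cells without SAP25 and 1.07 (0.921 to 1.23) in cells with 3 or more. These intervals cover counting error alone and leave out the spread between cells, for which MEG3 had a squared CV beyond Poisson of 2.53. No difference is read from them. The intervals of the shares of cells with MEG3, 45.7% (39.2 to 52.3) and 42.2% (34.9 to 49.8), overlapped.

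The genes around SAP25 were examined next. Within 100 kb, 18 other genes are annotated, 12 of them were in the tables, and 8 had 100 UMIs or more in either library. LRCH4, which encodes a leucine-rich repeat protein and ends 110 bases before the start of SAP25 on the same strand, had 482 UMIs in mock-treated and 1337 in DAC-treated cells, a ratio of 2.34 (2.11 to 2.61). GNB2, a G protein subunit gene, had 6416 and 15326 UMIs, a ratio of 2.02 (1.96 to 2.08). By their starts, 12.2 and 99.7 kb from that of SAP25, these were the nearest and the farthest of the 8 genes. Next to LRCH4, the ratio was 1.93 for PCOLCE at 28.5 kb, 1.22 for AGFG2 at 34.7 kb and 0.973 for MOSPD3 at 38.2 kb. Farther out, it was 1.13 for TFR2 at 68.9 kb, 1.78 for NYAP1 at 89.97 kb on 70 and 147 UMIs, and 1.53 for TSC22D4 at 94.7 kb. The intervals of AGFG2, MOSPD3 and TFR2 held 1. Of the genes with fewer UMIs, FBXO24 at 10.1 kb had 24 and 22 UMIs, a ratio of 0.775 (0.414 to 1.44), and PCOLCE-AS1 at 30.3 kb had 8 and 5, and both were named after their values were seen. No trend with distance is read from these ratios. Thus, none of the 8 neighbors with 100 UMIs or more, nor FBXO24 or PCOLCE-AS1, came near the ratio of SAP25. Neighbors without a UMI in mock-treated cells, or absent from the tables, gave no ratio. A long non-coding RNA annotated on the same strand overlaps both SAP25 and LRCH4 and was not listed in the tables, so that molecules of SAP25 and of a longer transcript ending there cannot be told apart. Across the 1293 cells, the r of LRCH4 with SAP25 was −0.00307, and in the 698 cells LRCH4 had 0.197 UMIs in cells without SAP25 and 0.172 in cells with 3 or more.

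**Figure D5:**
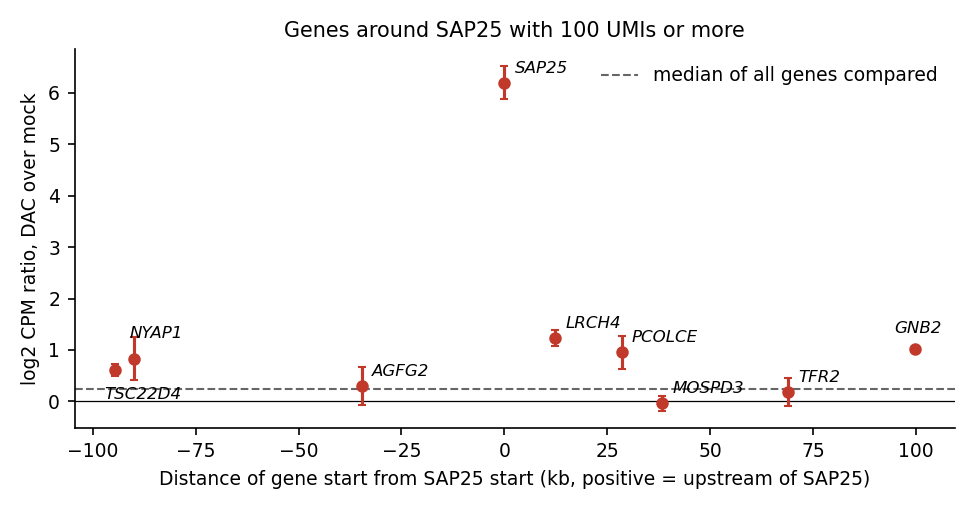
log2 CPM ratio of DAC-treated over mock-treated cells, with 95% counting intervals, for SAP25 and the 8 genes within 100 kb that had 100 UMIs or more, against the distance of each start from that of SAP25. SAP25 is at 6.19, and the highest neighbor, LRCH4, is at 1.23.

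The genes of other deacetylase complexes showed no common direction. Of 76 genes of the SIN3, NuRD, CoREST, NCoR, MiDAC and ASAP complexes, of factors that recruit SIN3 and of other deacetylases, 74 had 100 UMIs or more in the library where their CPM was higher, and 4 of these were 2-fold higher or more and 4 were 2-fold lower or less, where the shares over all genes compared were 16.4% and 6.59%. Their median log2 ratio was 0.10, below the 0.25 of all genes compared. Among 17 further SIN3 subunits, the median was 0.22, and 1 gene was 2-fold higher. This was SAP30L, the paralog of SAP30, with 495 and 1320 UMIs and a ratio of 2.25 (2.03 to 2.50). Among 15 recruiting factors, including REST and the MXD family, none passed 2-fold, and the median was −0.01. The median was 0.32 over 10 NuRD genes, −0.21 over 15 CoREST, NCoR and MiDAC genes, and 0.40 over 3 ASAP partners of SAP18.

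The largest ratio on these lists was that of HDAC9, and the next were close to each other. HDAC9, a class IIa deacetylase gene, had 21 UMIs in mock-treated and 187 in DAC-treated cells, a ratio of 7.53 (4.78 to 12.4), and SIRT7, which encodes a nuclear sirtuin, had 2169 and 5835 UMIs, a ratio of 2.27 (2.16 to 2.39), within counting error of that of SAP30L. Of the genes lowest after DAC, SIRT5 had 680 and 247 UMIs, a ratio of 0.307 (0.264 to 0.356), and SIRT3 had 426 and 202 UMIs, a ratio of 0.401, both of them genes of mitochondrial sirtuins, whereas SIRT4, the other mitochondrial sirtuin gene, had 63 and 92 UMIs, too few to be among the 74 genes, and a ratio of 1.23 (0.886 to 1.73). HDAC4, also of class IIa, had 382 and 189 UMIs, a ratio of 0.418. Of the other class IIa genes, HDAC5 had a ratio of 0.704 and HDAC7 of 1.18. SIRT4, HDAC5 and HDAC7 are given to complete these groups. The counts of 4 were completed by MBD3 of NuRD, with a ratio of 2.18, and TBL1X of NCoR, with a ratio of 0.439, which, like the former 3, were named after their values were seen. On the median-of-ratios scale, 1 gene was 2-fold higher or more and 9 were 2-fold lower or less. The shares over all genes compared were not computed on that scale, so these counts are not read further.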

How the data were processed

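The values were UMI counts per gene and cell of 1 mock-treated and 1 DAC-treated library of HCT116 cells. Reads were mapped by the authors to hg38 with Cell Ranger, and the deposited values were whole UMI counts of 33538 genes without normalization. The annotation release and any filter on cells are not given in the sources used here. All deposited cells were used, from 500 UMIs per cell, and doublets were not called. Instead, the 5% of cells with the most UMIs were left out as an alternative. Totals were 49911689 and 59046165 UMIs.

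CPM was computed from UMI sums. The tools were pandas 2.3.3, scipy 1.17.1 and numpy 2.4.6 under Python 3.11.15, and matplotlib 3.10.9 drew the plots. UMI sums have exact Poisson intervals, shares of cells exact Clopper-Pearson intervals, and CPM ratios exact conditional binomial intervals, at the 95% level. Cells of 1 library are not replicates, so no p-value is given. Genes were compared from 100 UMIs in the library with the higher CPM. Cells were thinned without replacement. The computations were tested on simulated data. Positions come from GENCODE release 44 and promoters from RefSeq, which gave a window for 9 of the 10 members.

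The members and lists were chosen with earlier results of these data known. By the rule for named genes, these were the members, the 3 highest and 3 lowest genes of the lists by CPM ratio, all genes within 100 kb of SAP25 with 100 UMIs or more, the 5 genes with the highest r, MEG3, LY6K and UCHL1, and the cell type markers. Outside this rule, LINC00958 and GAGE12H mark the threshold at which SAP25 was picked, REST is an example of a list, and MBD3, TBL1X, SIRT4, HDAC5, HDAC7, MT-CO1, MT-CYB, FBXO24 and PCOLCE-AS1 were named after their values were seen. Alternatives were other scalings, other sets of cells, other UMI thresholds, other depths of thinning and another minimum, and the 20 draws were added after the data were seen.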

Additional observations from a re-analysis of the deposited data

How the results depend on the processing

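The log2 CPM ratio of SAP25 was 6.19, 4.53 when per-cell CPM values were averaged and 6.54 in cells with up to 20% mitochondrial UMIs. The median of the other 9 members was 0.46, 0.22 with median-of-ratios scaling and 0.62 when per-cell CPM values were averaged. The share of DAC-treated cells with 3 SAP25 UMIs or more, 44.3%, was 16.7% after thinning to 10000 UMIs, 0.195% after thinning to 1007, and 53.9% in cells with up to 20% mitochondrial UMIs, and it was 62.4% from 1 UMI and 50.8% from 2. The squared CV beyond Poisson of SAP25, 0.743, was 1.51 at 1007 UMIs, 0.627 with another seed and 0.466 in cells with up to 20% mitochondrial UMIs. That of HDAC1 was −0.0266 in the latter cells and that of SUDS3 was −0.12 at 1007 UMIs. Genes of the other complexes 2-fold higher and lower, 4 and 4, were 1 and 9 with median-of-ratios scaling, for which the shares over all genes compared were not computed. Thinning drew fewer UMIs and also left out shallow cells. The cause of the differences was not tested. Over the 7 alternatives of scaling and of left-out cells, the log2 CPM ratio was from 1.07 to 1.42 for BRMS1, from 0.77 to 1.22 for SAP30 and from −0.76 to −0.23 for HDAC1, and that of HDAC2 changed sign, from −0.25 to 0.10. Within classes of cells by depth or mitochondrial share, BRMS1 alone stayed within its range over these alternatives, and the other members, SAP25 included, went beyond theirs. In cells above 50% mitochondrial UMIs, the CPM ratio was 1.18 for HDAC1, 1.86 for HDAC2 and 3.07 for SAP30, on 62, 41 and 5 UMIs in mock-treated cells. No paired analysis was possible because each condition has 1 library and the labels carry no replicate numbers.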
